A study of Homo sapiens with 4 samples.

Results

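TAP2, PBX2 and ATF6B are 3 protein-coding genes of the major histocompatibility complex (MHC) region on the short arm of human chromosome 6. They were chosen by symbol from a deposited table of 6434 genes because their signal was low in RNA left behind by an antibody against N1-methyladenosine (m1A), a methylated base of RNA. HepG2 cells, a line from a human liver tumour, were grown in DMEM with no further treatment, and their RNA was enriched for poly(A) in both groups. The input group (n = 2 arrays) held that RNA before any antibody, and the supernatant group (n = 2 arrays) held the RNA that stayed in solution after immunodepletion with anti-m1A antibody. The comparison was meant to give, transcript by transcript, the share of molecules with m1A, because the antibody takes methylated molecules away from the supernatant. The table gives linear intensities in 4 columns, an input and a supernatant for each of the letters A and B. It lists 5210 genes in which the study found 1 m1A peak (called one-peak genes here) and 1224 genes in which it found none (non-m1A genes). All 3 genes are one-peak genes. The labels do not say whether the arrays came from separate cultures, so a p-value here may reflect technical spread alone.

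The MHC region is known for the genes that show peptides to the immune system, but it also holds many genes with other work. TAP2 is a subunit of the transporter that moves peptides from the cytosol into the endoplasmic reticulum, where class I molecules are loaded. Its partner in that transporter is TAP1, and class I genes and the transporter are known to be induced by interferon. PBX2 is a homeobox transcription factor of the TALE family that binds DNA together with HOX and MEIS proteins. ATF6B is a transcription factor held in the endoplasmic reticulum membrane, released by the proteases MBTPS1 and MBTPS2 when unfolded proteins build up, and a relative of the better known ATF6. Messenger RNA m1A is known mainly from the region around the start of translation.

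The RefSeq gene table of GRCh38.p14 was used for the order of the genes, because the deposited table names no genome build. ATF6B and PBX2 lie in the class III part of the MHC region, with 7 protein-coding genes between them, of which 4 were measured. TAP2 lies in the class II part, 12 protein-coding genes beyond PBX2, none of which is in the deposited table. Among the measured genes PBX2 and TAP2 are therefore neighbours, although they are not neighbours on the chromosome. All 3 genes are read from the minus strand. RefSeq also lists a PBX2 pseudogene on chromosome 3, PBX2P1, and whether array probes told the copies apart was not tested.

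The promoters are shown because the members were low together and their start regions can be compared letter by letter. Each line gives the 250 bases before the RefSeq transcript start, 5′ to 3′ on the gene's own strand, in build GRCh38.p14. The TAP2 window is chr6:32838740-32838989 on the minus strand. The PBX2 window is chr6:32190203-32190452 on the minus strand. The ATF6B window is chr6:32128247-32128496 on the minus strand. Capitals mark every match to the 6 motifs searched.
TAP2: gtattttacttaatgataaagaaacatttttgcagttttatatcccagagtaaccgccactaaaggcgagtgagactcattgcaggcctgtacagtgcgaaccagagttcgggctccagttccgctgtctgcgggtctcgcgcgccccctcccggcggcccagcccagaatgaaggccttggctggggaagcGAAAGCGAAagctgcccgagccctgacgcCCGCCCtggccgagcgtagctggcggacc
PBX2: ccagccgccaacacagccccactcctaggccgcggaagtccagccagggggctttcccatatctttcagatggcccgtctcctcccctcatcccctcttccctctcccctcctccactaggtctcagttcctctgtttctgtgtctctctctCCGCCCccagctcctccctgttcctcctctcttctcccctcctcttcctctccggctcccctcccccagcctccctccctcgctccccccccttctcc
ATF6B: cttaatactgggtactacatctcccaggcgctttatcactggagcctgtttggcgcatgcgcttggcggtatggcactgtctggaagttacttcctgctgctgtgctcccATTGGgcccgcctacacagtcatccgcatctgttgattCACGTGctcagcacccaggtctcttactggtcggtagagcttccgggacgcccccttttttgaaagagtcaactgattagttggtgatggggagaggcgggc

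The 3 windows shared no motif match across all of them. Each motif was searched on both strands. Interferon regulatory factors were given the motif GAAANNGAA and the nuclear factor Y box the motif CCAAT. The GC box, bound by Sp family factors, was searched as GGGCGG and the E-box, bound by basic helix-loop-helix factors, as CACGTG. For the ATF and CREB factors the motif was TGACGT, and for PBX proteins bound together with HOX proteins it was TGATTGAT. No pair of matches overlapped. TAP2 held 1 match to the interferon regulatory factor motif, GAAAGCGAA, whose first base lies 58 bases before the start. That motif was found in 7.06% of 27303 promoters of the same length and in 5.45% of the 4330 that belong to one-peak genes. TAP2 and PBX2 each held 1 GC box, 29 and 98 bases before the start. It was found in 42.3% of all promoters and 70.1% of one-peak promoters. ATF6B held 1 CCAAT match 140 bases before the start and 1 E-box 102 bases before it. These were found in 33.0% and 6.49% of all promoters, and in 36.6% and 9.31% of one-peak promoters. The ATF and CREB motif and the PBX with HOX motif were found in 7.42% and 0.472% of all promoters. In one-peak promoters these shares were 11.6% and 0.277%. Both motifs had no match in the 3 windows, which says only that these letters are not there.

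The base composition of the start regions differed among the 3 genes. The share of G and C in the 250 bases was 58.8% in TAP2, 64.8% in PBX2 and 55.2% in ATF6B, and the median of the 4330 one-peak genes with a promoter entry was 65.2%. A lower share than in ATF6B was found in 15.8% of these one-peak genes. In the first 50 transcribed bases it was 66% in each of the 3 genes, and the medians were 68% in the same one-peak genes and 66% in 981 non-m1A genes with an entry. PBX2 had 7 CpG dinucleotides in its window, ATF6B 11 and TAP2 19, and the one-peak median was 22. PBX2 therefore combined a near-median GC content with few CpGs, as its long runs of C and T show.

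TAP2 had the lowest signal of the 3. Its intensity was 68.6 in input A and 67.1 in input B, and 49.6 in supernatant A and 44.5 in supernatant B. Both supernatant values lay below both input values. The mean was 67.9 ± 1.04 in the input and 47.1 ± 3.60 in the supernatant (SD, n = 2), a log2 difference, supernatant minus input, of -0.53. The 2 inputs differed by -0.03 on the log2 scale (B minus A), and 9.90% of one-peak genes had inputs closer to each other, while the 2 supernatants differed by -0.16.

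PBX2 had almost the same value in both supernatants. Its intensity was 96.4 in input A and 106.7 in input B, and 69.5 in supernatant A and 69.3 in supernatant B. The groups did not overlap, and the spread lay in the inputs. The mean was 101.5 ± 7.23 in the input and 69.4 ± 0.141 in the supernatant (SD, n = 2), a log2 difference of -0.55. Only 2.46% of one-peak genes had supernatants closer to each other.

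ATF6B was the lowest of the 3 relative to its input and also the least even between supernatants. Its intensity was 154.8 in input A and 150.7 in input B, and 107.9 in supernatant A and 87.7 in supernatant B. The inputs were close and the supernatants were apart, without overlap between the groups. The mean was 152.8 ± 2.89 in the input and 97.8 ± 14.3 in the supernatant (SD, n = 2), a log2 difference of -0.65. The supernatants differed by -0.30 on the log2 scale, more than in 93.1% of one-peak genes.

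**Figure D1:**
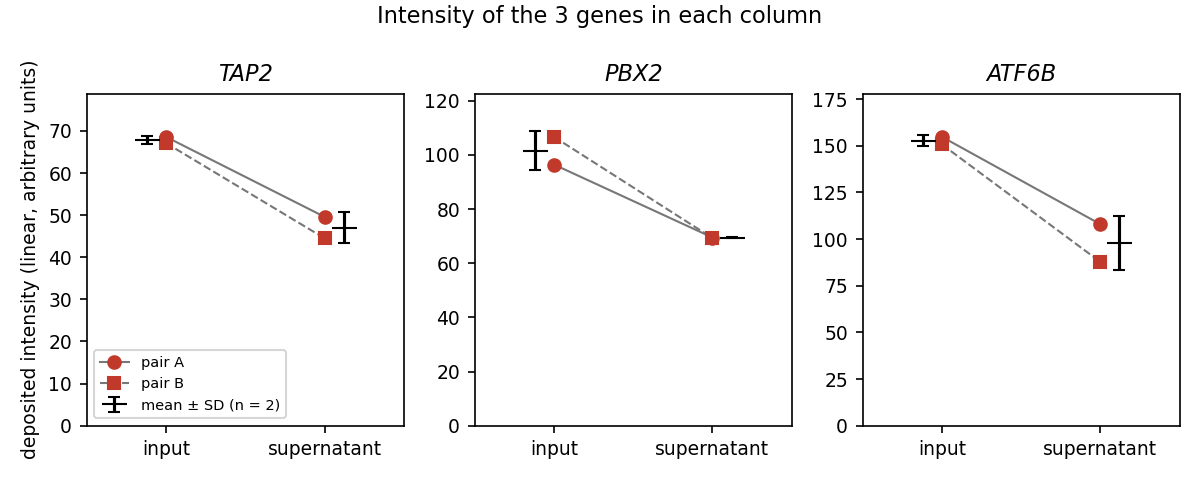
Intensity of TAP2, PBX2 and ATF6B in each column (vertical axis, linear, arbitrary units, starting at 0), with lines joining input and supernatant of the same letter and black bars for the mean ± SD of 2 columns. In each gene both supernatant points lie below both input points, and the supernatants are nearly equal for PBX2 and farthest apart for ATF6B.

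These values chose the genes, so they describe the choice and no test is given for them. Across the whole table, limma called 0% of genes lower and 0.0155% higher at a Benjamini-Hochberg adjusted p under 0.05, which is 0 and 1 of 6434. With no adjustment and a p under 0.05, 40 genes were lower (0.622%) and 90 were higher (1.40%). This balance turned with scaling, to 74 lower and 45 higher after quantile normalization and to 77 and 53 after centring on the non-m1A medians. Both supernatants lay above both inputs in 16.6% of all genes. They lay below both inputs in 6.37% of all genes and 6.24% of one-peak genes, and nothing is read from the members' 3 of 3 beside that.

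The difference was larger in pair B than in pair A in all 3 genes. TAP2 was 27.7% lower in the supernatant than in the input of pair A and 33.7% lower in pair B. PBX2 was lower by 27.96% in pair A and by 35.1% in pair B. For ATF6B these shares were 30.3% and 41.8%. On the log2 scale pair B minus pair A was -0.12 for TAP2, -0.15 for PBX2 and -0.26 for ATF6B, and the median one-peak gene differed by 0.11 in size between pairs. The TAP2 and PBX2 gaps are thus about those of an ordinary one-peak gene. The median change of the one-peak genes was 0.03 in each of the pairs.

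The members ranked among the 12 lowest of the 5210 one-peak genes in either pair taken alone. By the log2 difference from the lowest up, ATF6B was number 7 in pair A and number 4 in pair B, PBX2 number 8 and number 10, and TAP2 number 9 and number 12. The gap between the lower input and the higher supernatant was 0.44 on the log2 scale in TAP2, 0.47 in PBX2 and 0.48 in ATF6B. A gap at least as wide as that of TAP2 was present in 8 one-peak genes, TAP2 included.

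**Figure D2:**
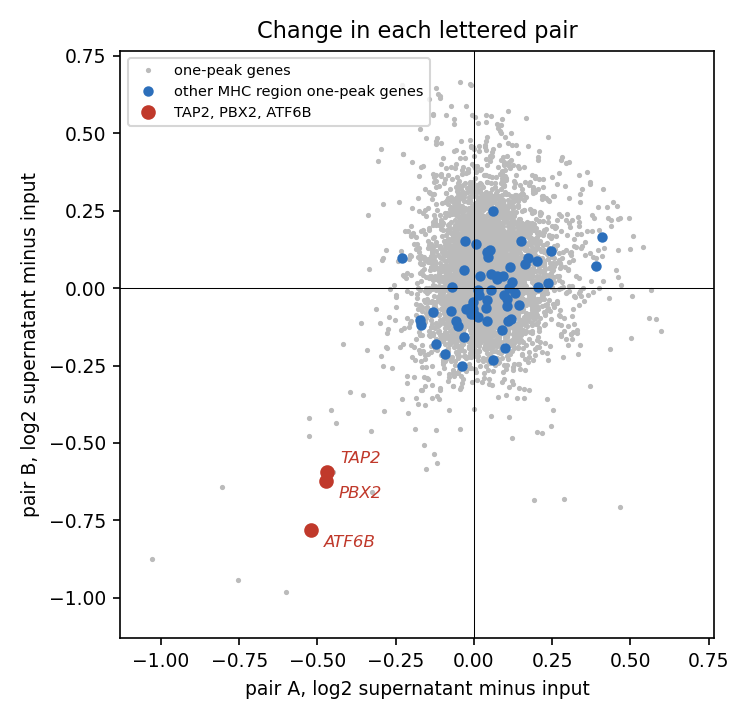
Log2 supernatant minus input in pair A (horizontal axis) and pair B (vertical axis) for the one-peak genes (grey), the other one-peak genes of the MHC region (blue) and the 3 members (red). The members lie at the lower left, between -0.47 and -0.52 in pair A and between -0.59 and -0.78 in pair B, apart from the blue points.

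In the authors' deposited table the methylated fraction was 0.51 for ATF6B, 0.47 for PBX2 and 0.46 for TAP2, and the median one-peak gene had 0.21. The deposited fraction is 1 minus a ratio that the authors divided by the average of that ratio over non-m1A genes, 1.29. Without a divisor, 1 minus the supernatant/input ratio was 0.363 for ATF6B, 0.316 for PBX2 and 0.308 for TAP2, and -0.0262 for the median one-peak gene. About 0.15 of each deposited fraction thus came with the divisor. On the deposited scale the gene just above the members was RPS6KA3, a kinase gene, at 0.53, and just below were the GTPase gene RAC3 at 0.46, level with TAP2, and RAD23B, a DNA repair gene, at 0.45.

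All 3 genes were dimmer than the median one-peak gene, whose mean input intensity was 216. TAP2 stood at percentile 11.4 of input intensity among one-peak genes, PBX2 at 24.5 and ATF6B at 38.7. On an array this orders brightness and not amounts of RNA, since probes differ. Dim genes spread more, so each member was set beside the 500 one-peak genes nearest to it in input intensity. Around TAP2 (inputs from 58.1 to 79.4) the middle 50% of log2 differences ran from 0.00 to 0.15, and the lowest other gene, AZI1, was at -0.27. Around PBX2 (87.5 to 117.9) the quartiles were 0.00 and 0.13, and 1 gene was lower than PBX2, the mitochondrial enzyme gene DLST at -0.85. Around ATF6B (132.3 to 176.2) they were -0.02 and 0.09, and 3 genes were lower, CCDC71, STK16 and RPS6KA3. The members therefore lay below the run of equally bright genes, as their choice implies.

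**Figure D3:**
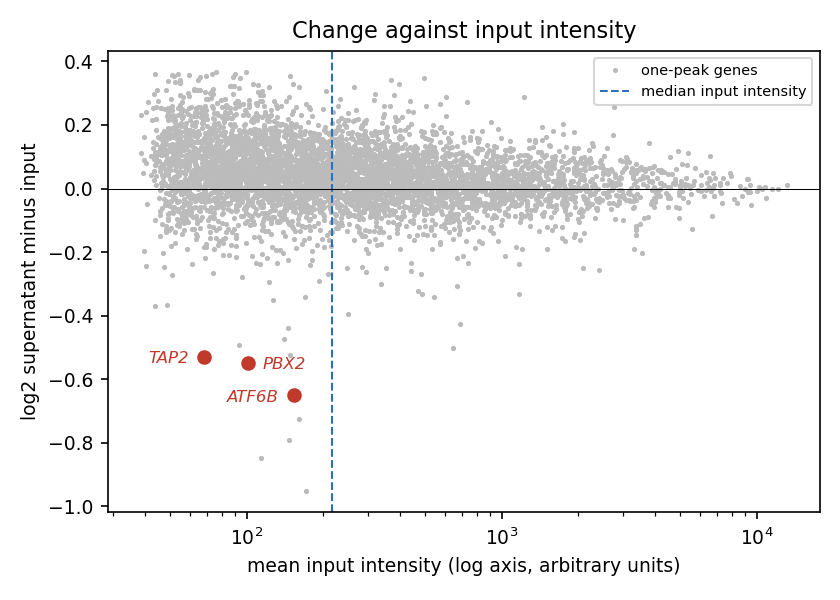
Log2 supernatant minus input (vertical axis) against the mean input intensity (horizontal log axis, arbitrary units) of the one-peak genes, with the 3 members in red and the median input intensity, 216, as a dashed line. The cloud is wider among dim genes, and TAP2, PBX2 and ATF6B lie below it at -0.53, -0.55 and -0.65.

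The neighbourhood of the 3 genes did not share their low values. RefSeq lists 147 protein-coding genes from GABBR1 to KIFC1. Of all the genes it lists there, protein-coding or not, 71 were measured, 62 of them one-peak genes and 9 non-m1A genes. Without the members, the other 68 had a median log2 difference of 0.00664, against 0.0410 over all genes, and 31 of the 68 were below 0. The sign of their median turned with scaling, to -0.0603 after centring on the non-m1A genes and -0.0178 after quantile normalization, and it was -0.0716 without input A and 0.0833 without input B. None of the 68 passed in either direction, where 0 of all 6434 genes passed as lower and 1 as higher. At an unadjusted limma p under 0.05, 1 of the 68 was lower, and 0.622% of all genes were. Both supernatants lay below both inputs in 6 of the 68 (8.82%), where all genes had 6.37%, and above both inputs in 9 of the 68, where all genes had 16.6%.

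Among the one-peak genes of the region the members lay apart from the rest, as their choice for low values implies. The other 59 one-peak genes of the region ran from -0.15 in NFKBIL1 to 0.29 in EHMT2, a histone methyltransferase gene, and their highest deposited fraction was 0.30. The lowest non-m1A gene, VWA7 at -0.48, lay near TAP2 at -0.53. VWA7 was dim, with input intensities of 11.5 (A) and 17.2 (B) and supernatant intensities of 11.7 (A) and 8.66 (B). Its groups overlapped, and the whole difference came from pair B. POU5F1, the stem cell transcription factor gene, was at -0.32, with intensities of 35.9 and 32.2 in the inputs and 26.7 and 27.7 in the supernatants. POU5F1 was the 1 gene of the 68 below the unadjusted threshold.

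**Figure D4:**
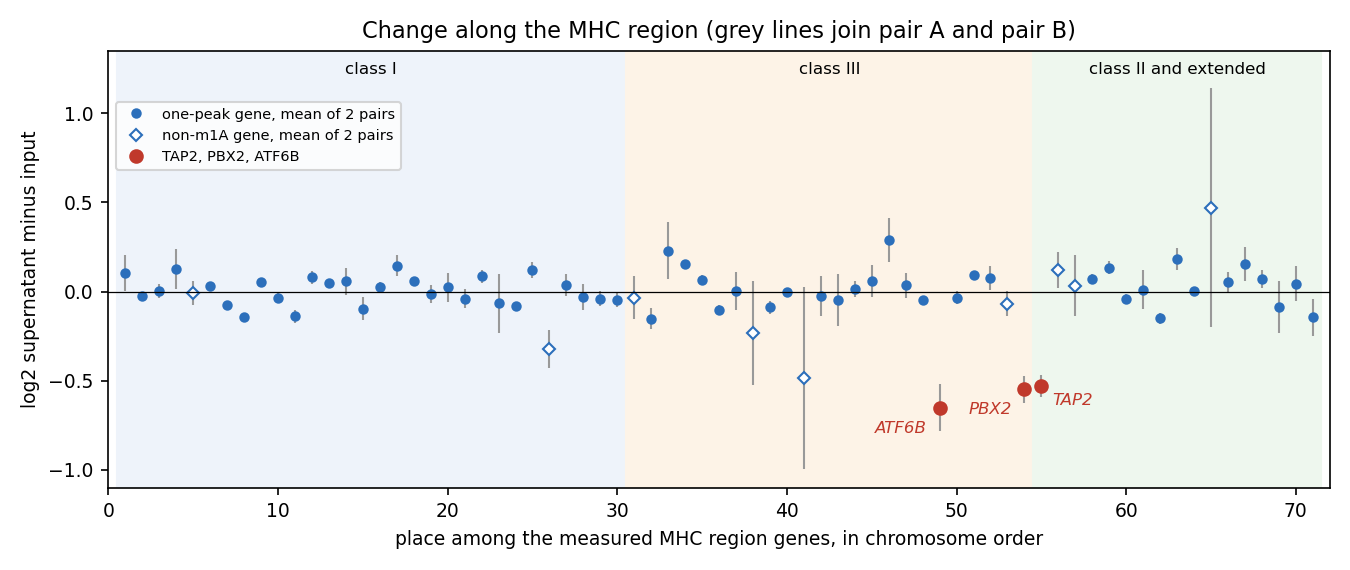
Log2 supernatant minus input (vertical axis) of the 71 measured MHC region genes in chromosome order (horizontal axis), as the mean of 2 pairs with a grey line joining pair A and pair B, filled for one-peak and open for non-m1A genes. The members (red) lie at -0.65, -0.55 and -0.53, while the other one-peak genes lie between -0.15 and 0.29.

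The measured neighbours, up to 3 on each side of a member, ran from -0.07 to 0.29 apart from the members themselves. On one side of ATF6B were STK19 at -0.05, DOM3Z at 0.04 and EHMT2 at 0.29, the last with 117.0 and 177.1 in the inputs and 155.5 and 198.5 in the supernatants, so that its groups overlapped. On the other side was the FK506-binding protein-like gene FKBPL at -0.03, with no protein-coding gene between. Farther on came AGPAT1, an enzyme of phospholipid synthesis, at 0.09 and the ubiquitin ligase gene RNF5 at 0.08. AGER, the receptor for advanced glycation end products and the gene next to PBX2, was at -0.07, with 29.8 and 33.1 in the inputs and 29.9 and 30.1 in the supernatants. On the far side of TAP2, with no protein-coding gene between, was the immunoproteasome subunit gene PSMB8 at 0.12, followed by TAP1 at 0.03 and the bromodomain gene BRD2 at 0.07. None of these genes passed.

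By part of the region, the 30 measured class I genes had a median of 0.00, the 22 class III genes other than the members -0.01 and the 16 class II and extended genes other than TAP2 0.05. The named genes are those farthest from 0. In class I they were POU5F1, the nuclear membrane gene NRM at 0.15, the GTPase gene GNL1 at -0.14 and the phosphatase subunit gene PPP1R10 at -0.14. In class III they were VWA7, EHMT2, C6orf25 at -0.23 and PRRC2A at 0.23. In class II and beyond they were the galactosyltransferase gene B3GALT4 at 0.47, the trafficking gene VPS52 at 0.18, the prefoldin gene PFDN6 at 0.15 and RING1, a Polycomb gene, at -0.15. B3GALT4 was dim and split between pairs, with 4.91 and 11.5 in the inputs and 10.8 and 10.02 in the supernatants.

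The transporter partner of TAP2 behaved differently from it. TAP1, a non-m1A gene, had input intensities of 103.3 (A) and 121.8 (B) and supernatant intensities of 119.1 (A) and 110.7 (B). The groups overlapped, the pairs pointed opposite ways (0.21 and -0.14 on the log2 scale), and the mean difference was 0.03. TAP2 and TAP1 thus differed in the deposited peak class as well as in their change, and the difference between them was not tested because TAP2 was chosen for its change.

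In class I antigen processing 24 of 34 listed genes were measured, and 0 passed in either direction by limma. Of the 23 without TAP2, 0 were lower or higher by the unadjusted p, where 0.622% and 1.40% of all genes were. Without TAP2 the median of the other 23 was 0.03, close to the 0.04 of all genes. Both supernatants lay above both inputs in 4 of the 23, where all genes had 16.6%. They lay below both in 1 of the 23 (4.35%, and 6.37% of all genes), the peptide-loading disulfide isomerase gene PDIA3, at 1083 and 1263 in the inputs and 971 and 1014 in the supernatants, a log2 difference of -0.24. The class I heavy chain genes HLA-B, HLA-C and HLA-E were at -0.03, 0.04 and -0.07, and their light chain gene B2M was at 0.05. These HLA genes are near-identical in places, so their probes may share signal. Tapasin (TAPBP), which links the transporter to class I molecules, was at -0.09, the mean of 0.06 (A) and -0.23 (B). The chaperone gene CALR and the proteasome activator gene PSME3 were at 0.28 and 0.26. TAPBPL was at 0.73 at intensities of at most 4.01, dimmer than every one-peak gene.

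Class II presentation had 2 measured genes of 17, the class II regulators RFXAP at 0.14 and RFXANK at 0.04, and neither passed. Of the ABCB transporters, the subfamily to which TAP1 and TAP2 belong, 4 of 11 were measured and 0 passed in either direction. Among them was ABCB10, a mitochondrial transporter gene, at 0.05.

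Around PBX2, 5 of 12 TALE homeobox genes and PBX partners were measured and 0 passed in either direction. The median of the other 4 was -0.09. MEIS1, a DNA-binding partner of PBX proteins, was at 0.23, with 68.2 and 52.6 in the inputs and 70.6 and 69.9 in the supernatants. MEIS3 was at -0.06, the repressor gene TGIF2 at -0.12, and PBX4 at -0.43 with intensities of at most 8.87. In PBX4 and TGIF2 both supernatants also lay below both inputs, 2 of 4 genes against 6.37% of all genes, and in MEIS1 they lay above both (16.6% of all genes), and 4 genes are too few to read a share from. TGIF2 had 112.7 and 119.4 in the inputs and 106.6 and 107.2 in the supernatants, a smaller step than in PBX2.

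HOX genes, many of whose proteins bind DNA with PBX proteins, were searched by 52 symbols, not all of which are existing genes. Of these symbols 16 were measured. None passed, and the median was 0.00. At an unadjusted limma p under 0.05, 1 of the 16 was higher, where 1.40% of all genes were. HOXC11, the gene below that threshold, was at 0.32 with 84.4 and 94.6 in the inputs and 106.9 and 117.0 in the supernatants. HOXA4, HOXB9 and HOXA13 were at 0.43, -0.42 and 0.36. HOXA4 and HOXA13 owed this to pair B alone, with -0.34 and 0.02 in pair A against 1.19 and 0.70 in pair B. HOXB9 was at -0.44 in pair A and -0.40 in pair B, at intensities of at most 24.9.

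Around ATF6B, 24 of 36 genes of the ATF6 pathway and the unfolded protein response were measured, all of them one-peak genes, and 0 passed in either direction. The other 23 had a median of 0.05 and a range from -0.04 in DNAJB11, a chaperone gene, to 0.28 in CALR. Both supernatants lay below both inputs in 0 of the 23 and above them in 4, where all genes had 6.37% and 16.6%. The proteases that release ATF6 proteins were at 0.22 (MBTPS1) and 0.11 (MBTPS2). MBTPS1 was even between columns, with 147.0 and 143.8 in the inputs and 171.4 and 167.2 in the supernatants, and its groups did not overlap. The chaperone genes HSPA5, HSP90B1 and DNAJB9, textbook targets of the response, were at 0.11, 0.19 and 0.19, and XBP1, the transcription factor of a parallel branch, was at 0.03. The deposited fraction was 0.51 for ATF6B and at most 0.25 in the other 23. It comes from the same contrast that chose ATF6B, so this difference follows from the choice.

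**Figure D5:**
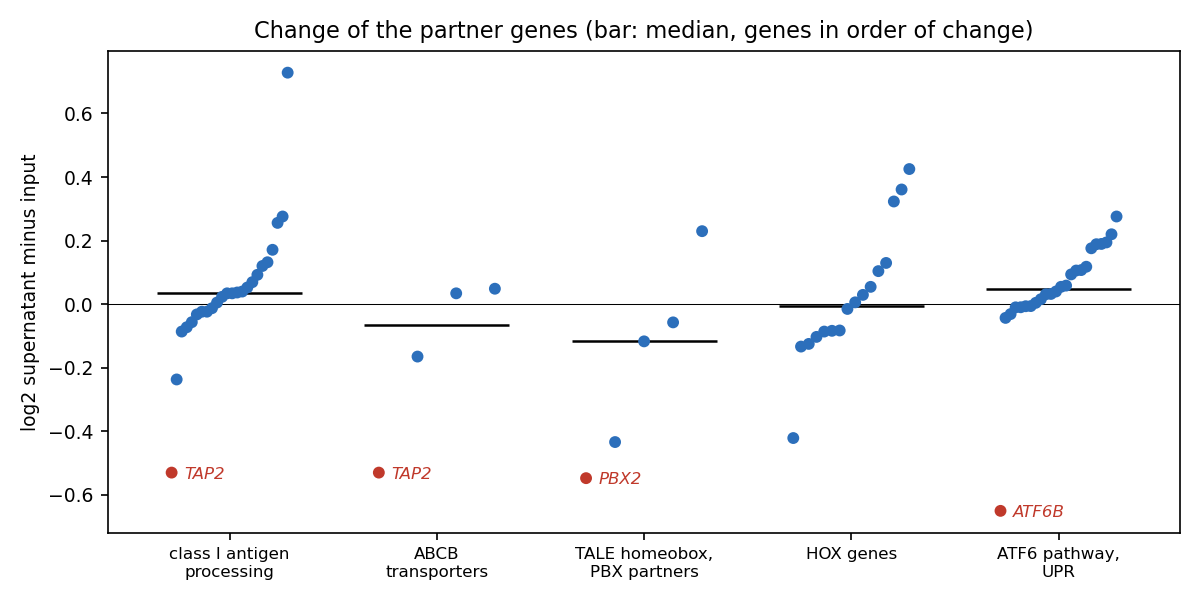
Log2 supernatant minus input (vertical axis) of the measured genes in 5 partner lists (horizontal axis), each gene a point in order of its change, with the list's median as a bar and the members in red. TAP2, PBX2 and ATF6B, chosen for low values, are the lowest points of their lists at -0.53, -0.55 and -0.65. The list medians lie between -0.12 and 0.05.

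The genes most like each member over the 4 columns were sought among the other 5903 genes at least as bright as the dimmest one-peak gene, by the distance between log2 values centred on each gene's mean. For TAP2 the nearest were RAC3 (distance 0.04) and RAD23B (0.09), then ATF6B (0.16), PBX2 (0.17) and FBXW11 (0.17), a ubiquitin ligase subunit gene. For PBX2 they were RAC3 (0.13), SPRNP1 (0.14), LSM14B (0.15), FBXW11 (0.16) and TAP2 (0.17). For ATF6B they were TAP2 (0.16), RAC3 (0.18), the poly-ADP-ribosylating enzyme gene TNKS2 (0.21), DLST (0.21) and RAD23B (0.23). TAP2 was the nearest gene of all to ATF6B, but PBX2 and ATF6B were not among each other's 5 nearest, at 0.27. These distances rest on 4 columns that share the contrast used to choose the members.

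The written form of the deposited values differed between genes. All 4 values of a gene became numbers of at most 4 decimals when multiplied by 2 in ATF6B, by 3 in PBX2 and by 4 in TAP2, and by no smaller whole number, within the printed digits. A multiplier of 1 sufficed in 41.7% of the one-peak genes, 2 in 15.4%, 3 in 20.0% and 4 in 8.77%. Means over that many probe sets would be written so, but the sources used here do not state how gene values were made. The members therefore need not rest on a single probe set each.

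Few markers of the labelled liver line could be checked. Of the hepatocyte markers that were listed, APOE, a lipoprotein gene, had 32.8 and 31.0 in the inputs and 26.2 and 33.8 in the supernatants. FOXA1, a liver transcription factor gene, had 85.0 and 128.4 in the inputs and 88.8 and 118.3 in the supernatants. TFR2, a transferrin receptor gene, had 19.5 and 24.6 in the inputs and 27.5 and 26.5 in the supernatants. The groups overlapped in APOE and FOXA1, and none of these intensities was at 0. In TFR2 both supernatants lay above both inputs, as in 16.6% of all genes. Of 9 leukocyte and antigen-presenting cell markers 1 was listed, CD68, with 30.1 and 42.4 in the inputs and 35.03 and 40.02 in the supernatants. Of 6 fibroblast markers 1 was listed, COL1A1, at 53.9 and 49.8 in the inputs and 65.6 and 66.9 in the supernatants. Its supernatants thus also lay above both inputs, as in 16.6% of all genes. None of 4 endothelial markers was listed. Both groups held RNA of the same cell line, before and after the antibody, so these values do not compare numbers of cells. The part of other cells in the members' values was not tested.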

How the data were processed

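RNA of HepG2 cells was measured on 4 Affymetrix arrays (2 input, 2 supernatant), grouped by sample title. Per the submitters' processing notes, RMA was used, with no version given. The gene table holds deposited intensities on a linear scale, the authors' deposited ratio and the authors' deposited fraction, per the file headers. The making of these intensities is not stated in the labels or headers. The lettered columns were not matched to replicate numbers. The deposited probe set table was not used, because no table here pairs probe sets with genes. Log2 intensities of all 6434 genes were compared between groups by limma (version 3.58.1, under R 4.3.3, functions lmFit and eBayes, no pairing) with Benjamini-Hochberg adjustment at 0.05, after a check on simulated data. Python 3.11.15, pandas 2.3.3, NumPy 2.4.6 and matplotlib 3.10.9 were used.

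Members, lists, motifs and alternatives were chosen with earlier results of these data known. Named list genes are up to 4 further genes with the largest log2 difference, plus up to 3 measured neighbours on each side of a member; others (TAPBP, B2M, the HLA genes, MBTPS2, HSPA5, XBP1, NFKBIL1, DNAJB11) were picked for their role or as the end of a range, after their values were seen. Of the symbols, 5924 were current in RefSeq, 478 matched a single older symbol and 32 none. Promoters of all 3 members came from RefSeq (GRCh38.p14). Some results are not reported here. The number of arrays limits the precision.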

Additional observations from a re-analysis of the deposited data

How the results depend on the processing

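The direction of the 3 genes held under all alternatives run. It could not turn without 1 column, with a replicate block or with log2(intensity + 32), because both supernatants lay below both inputs. Leaving out 1 column at a time gave -0.61 to -0.45 for TAP2, -0.62 to -0.48 for PBX2 and -0.80 to -0.50 for ATF6B on the log2 scale. Quantile normalization moved TAP2 to -0.61, and log2(intensity + 32) moved TAP2 to -0.34 and PBX2 to -0.40, by construction nearer to 0 in dim genes. Divided by the mean ratio of all non-m1A genes, the recomputed fractions were 0.464 for TAP2, 0.470 for PBX2 and 0.506 for ATF6B, and with the 694 bright non-m1A genes they were 0.341, 0.348 and 0.392. The 0 lower calls became 3 without input A and 1 without input B (range 0 to 3), and the 1 higher call became 32 and 11 (range 1 to 32). The cause was not tested. There were 0 higher calls with log2(intensity + 32), among bright genes and with a trended prior. No gene of the partner or region lists was called under any of these settings. The median of the other MHC region genes was -0.0603 after centring on the non-m1A medians and ran from -0.0716 without input A to 0.0833 without input B. The input percentile with 1 input alone was 11.6 to 11.9 for TAP2. With the lettered pair as a replicate block, the calls stayed at 0 lower and 1 higher and the differences at -0.53, -0.55 and -0.65. The unadjusted counts rose from 40 lower and 90 higher to 99 and 268 under this block. Deviations of columns with the same letter correlated at 0.451 over all genes and 0.698 over bright genes, and the labels do not state a pairing. Without input A the unadjusted counts were 128 and 504. The settings for the region median, the list calls and the input percentile were added after the data had been seen. The alternatives on the probe set table were not run, because it has no gene names.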
